A study of Mus musculus with 11 samples.

Results

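The genes described here mark Kupffer cells, monocytes and neutrophils, the myeloid cells that the injured and the healthy liver hold. They were chosen by name: 38 gene symbols were looked up in the array platform's annotation, and 37 of the 23185 genes with values carried one of them. Lyz2, a lysozyme gene of granulocytes and macrophages, was not analysed here. The 37 genes were read as 12 of resident macrophages, 7 of monocytes and recruited macrophages, 8 of neutrophils, 9 shared by several myeloid cells, and Ptprc, the phosphatase CD45 that marks all leukocytes.

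Kupffer cells are the macrophages that line the liver sinusoids, where they clear particles, bacteria and old red cells from the blood, and most of them renew themselves in place. Monocytes leave the marrow through the chemokine receptor CCR2 and can become macrophages at sites of injury, while neutrophils follow CXC chemokines through the receptor CXCR2 and are filled with granule proteins made during their growth in the marrow. In livers with bile duct injury, both kinds of cell are known to gather around the ducts.

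The series measured sorted mouse liver cells on 11 Affymetrix MoGene 2.0 ST arrays, whole-transcript arrays of 1 colour. YFP+ cells, which carry a yellow fluorescent lineage label, came from mice treated with DDC (diethoxycarbonyl-dihydrocollidine, a diet that injures the bile ducts) on 3 arrays, from mice treated with CDE (a choline-deficient, ethionine-supplemented diet that injures hepatocytes) on 3 arrays, and from untreated mice (UTR) on 2 arrays. YFP- cells came from untreated mice on 3 arrays. The protocol describes a DDC diet of 5 weeks in 4 mice, collagenase digestion of the liver, and sorting of live cells from the non-parenchymal pellet against a gate set on wild-type mice. It gives no time for CDE, no ages and no strain, and it names neither the promoter behind the label nor the animals behind each array. The p-values therefore reflect how the arrays of a group vary, a variation that may be technical.

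All 11 samples are titled as liver progenitor cells, the YFP- ones too. The mean of 7 biliary markers, Sox9 and Krt19 among them, lay between 9.84 and 10.19 on the 8 YFP+ arrays, against 7.71, 4.77 and 4.59 on YFP- arrays 1, 2 and 3 (log2 array units, the scale of every level and difference given here). Sinusoidal endothelial markers, 10 in all, averaged 11.73, 10.07 and 10.46 on the YFP- arrays, against 4.97 to 5.78 on the YFP+ arrays. The YFP- arrays also stood apart from each other: correlations across genes ran from 0.888 to 0.925 among them and from 0.98 to 0.991 among the YFP+ arrays. The lower quartile of an array lay between 4.27 and 4.38, and a gene under it is called dim.

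**Figure D1:**
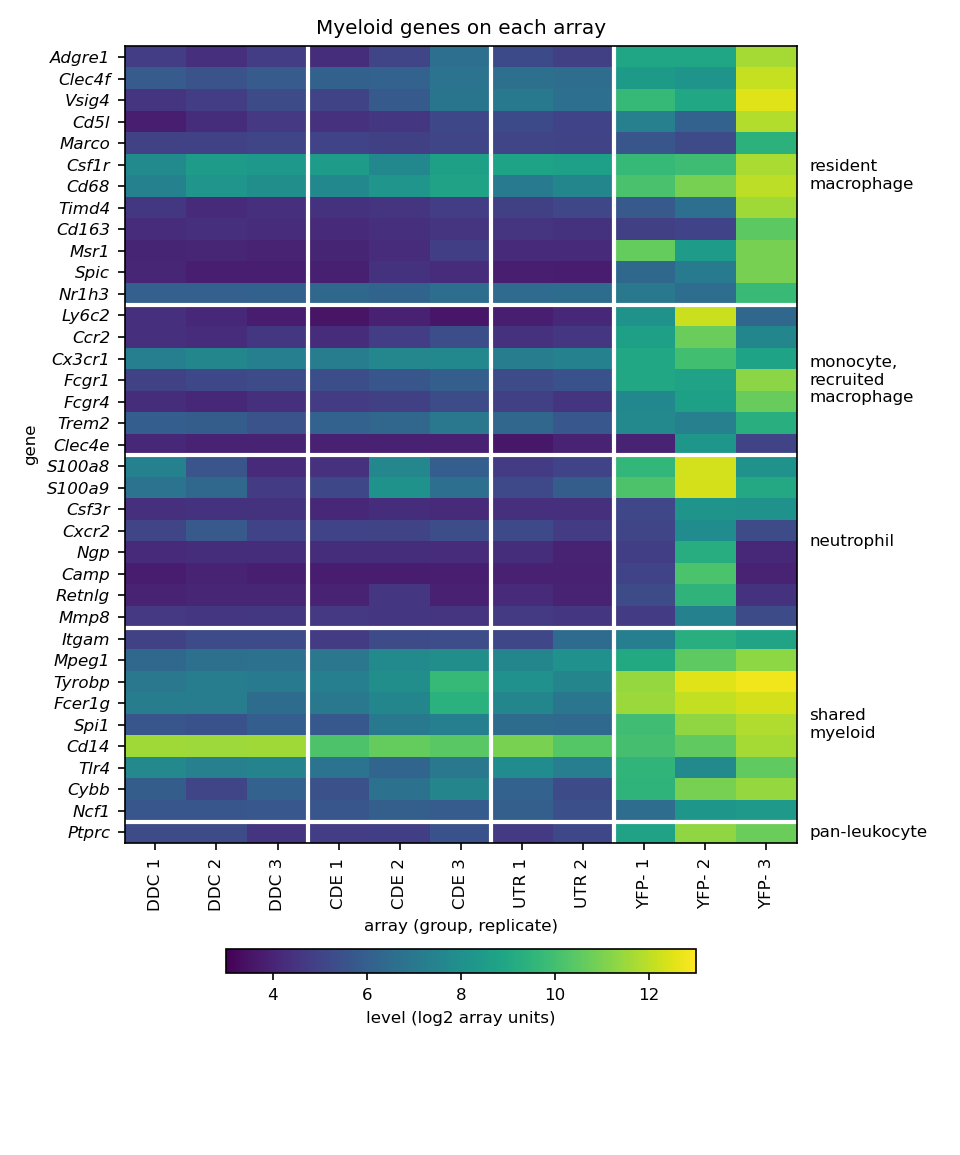
Level (log2 array units, colour) of the 37 genes (rows, by cell type) on the 11 arrays (columns, by group and replicate). Most rows are dark on the 8 YFP+ arrays and bright on the 3 YFP- arrays, the brightest macrophage values are on YFP- array 3 and the brightest neutrophil values on YFP- array 2, and Cd14 is bright throughout.

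Untreated YFP+ cells were first set against YFP- cells, the rest of the sorted fraction. Most of the myeloid transcripts were lower in them: 22 of the 37 genes were lower and 0 were higher in UTR (limma, adjusted p under 0.05 over all genes), where 8.46% of all genes were lower. Of all 23185 genes 2412 were higher. The median difference, UTR minus YFP-, was -2.94 for the 37 genes and -0.0079 for all genes. On 32 of the 37 both UTR arrays read below all 3 YFP- arrays, as did 20.5% of all genes. Taking the 3 YFP+ groups together, 27 of the 37 were lower than in YFP- and 0 higher, where 14.3% of all genes were lower, with a median of -3.22. On 29 of them all 8 YFP+ arrays read below all 3 YFP- arrays, against 11.7% of all genes. Both comparisons use the same 3 YFP- arrays. The YFP- cells came from untreated mice, while DDC and CDE are among the 3 YFP+ groups, so the joint comparison does not separate label from diet. In RNA of sorted bulk cells, fewer cells of a type and less RNA per cell cannot be told apart.

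The fit gives each gene 1 spread for all groups, and for 34 of the 37 genes the YFP- arrays varied more than any YFP+ group (median SD 1.54 in YFP-, against 0.17 in DDC, 0.35 in CDE and 0.22 in UTR), a difference that this spread does not describe. Separate weights for YFP+ and YFP- arrays gave 23 calls in UTR minus YFP-, Clec4f and Cd5l added and S100a8 lost. Fitting the UTR and YFP- arrays alone left 7 of the 22 calls, and leaving out UTR replicate 1 or UTR replicate 2 left 13.

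**Figure D2:**
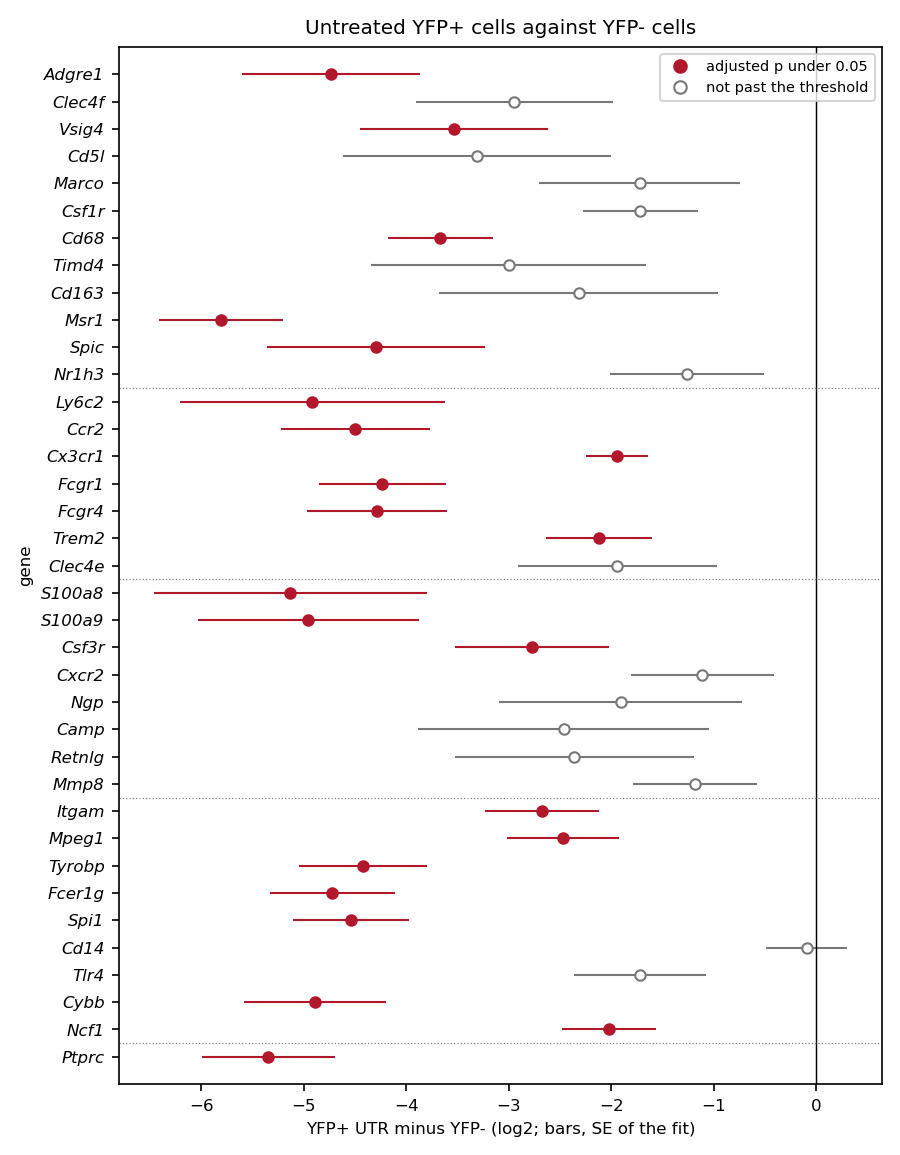
Difference in level, YFP+ UTR minus YFP- (x axis, log2; bars, SE of the limma fit), for each of the 37 genes (y axis, by cell type, separated by dotted lines). Filled points passed an adjusted p of 0.05, all of them left of 0, and Cd14 sits at -0.094.

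Most resident macrophage genes were lower in YFP+ cells than in YFP- cells. In UTR 5 of the 12 were lower than in YFP- and 0 were higher, and over all YFP+ arrays 9 of the 12 were lower. The lectin Clec4f, in the mouse found on Kupffer cells alone, read 5.88, 5.57 and 5.86 in DDC, 6.12, 6.16 and 6.80 in CDE and 6.69 and 6.56 in UTR, against 8.45, 8.17 and 12.10 in YFP-. Vsig4, the complement receptor by which Kupffer cells catch bacteria, read 4.51, 4.82 and 5.30 in DDC, 5.05, 5.82 and 6.89 in CDE and 7.04 and 6.64 in UTR, against 9.69, 8.94 and 12.50 in YFP-. For both genes every YFP- array lay above every YFP+ array, and YFP- replicate 3 lay far above the other two. Adgre1, an adhesion receptor on the surface of mature mouse macrophages, read 4.80, 4.36 and 4.82 in DDC, 4.32, 5.09 and 6.66 in CDE and 5.26 and 4.88 in UTR, against 8.88, 8.89 and 11.65 in YFP-. Its UTR mean was 26.6-fold below the YFP- mean (difference -4.74 ± 0.87, SE; adjusted p = 0.00487, limma).

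Vsig4 also fell in UTR (-3.53 ± 0.92; adjusted p = 0.0256, limma), while Clec4f missed the threshold there (-2.94 ± 0.96; adjusted p = 0.0626) and passed it over all YFP+ arrays (-3.32 ± 0.71; adjusted p = 0.00697). The largest fall of all 37 genes was that of Msr1, a scavenger receptor for modified lipoproteins, at -5.81 ± 0.61 (adjusted p = 0.000298, limma). Msr1 and Spic, the transcription factor of iron-recycling macrophages (-4.30 ± 1.07), were dim on both UTR arrays, so their differences are lower bounds of the size. The lysosomal glycoprotein Cd68 was also lower, at -3.67 ± 0.51.

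Cd5l, a secreted macrophage protein that guards against apoptosis, read 3.86, 4.29 and 4.64 in DDC, 4.41, 4.58 and 5.15 in CDE and 5.25 and 5.03 in UTR, against 7.35, 6.14 and 11.84 in YFP-. Timd4, the phosphatidylserine receptor of long-lived resident macrophages, read 4.63, 4.19 and 4.40 in DDC, 4.45, 4.56 and 4.82 in CDE and 4.88 and 5.12 in UTR, against 5.79, 6.64 and 11.57 in YFP-. No YFP+ array reached a YFP- array in either gene, and the spread within YFP- exceeded the gap between the groups. The scavenger receptor Marco read 4.92, 4.92 and 5.11 in DDC, 5.03, 4.90 and 5.10 in CDE and 5.11 and 5.04 in UTR, against 5.68, 5.28 and 9.42 in YFP-, so that only YFP- replicate 3 stood well above the rest. Csf1r, the receptor through which CSF1 keeps macrophages alive, read 7.80, 8.50 and 8.35 in DDC, 8.50, 7.68 and 8.69 in CDE and 8.79 and 8.66 in UTR, against 9.69, 9.90 and 11.72 in YFP-.

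In UTR minus YFP- these 4 genes, with Cd163, the haemoglobin scavenger receptor, and Nr1h3, the oxysterol receptor LXR-alpha, did not pass the threshold, with differences of -3.31 for Cd5l, -3.00 for Timd4, -2.32 for Cd163, -1.72 for Marco, -1.72 for Csf1r and -1.26 for Nr1h3. Over all YFP+ arrays Cd5l (-3.74), Timd4 (-3.33) and Csf1r (-2.03) passed it, along with Adgre1 (-4.78), Vsig4 (-4.50), Cd68 (-3.22), Msr1 (-5.82) and Spic (-4.14), while Cd163 (-2.40), Marco (-1.77) and Nr1h3 (-1.44) did not. YFP- replicate 3 set much of these values: without it the median of the 12 genes in UTR minus YFP- was -1.64 in place of -3.15, and over all YFP+ arrays the differences were -2.05 for Clec4f, -2.04 for Cd5l, -1.54 for Timd4 and -2.73 for Spic. Of the 12 genes 9 were called lower in UTR without that array, and 8 without YFP- replicate 1 or without YFP- replicate 2, in place of 5.

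Further Kupffer cell genes outside the 37 went the same way, with 15 of 19 lower in UTR than in YFP- and 0 higher. They included the mannose receptor Mrc1 (-5.88), the lectin receptor Clec1b (-5.64), the kinase Mertk that clears apoptotic cells (-4.71) and the hyaluronan receptor Lyve1 (-3.65). Mrc1, Clec1b and Lyve1 are also known from sinusoidal endothelium, whose 10 markers were all lower in UTR, and the part of those cells in these differences was not tested.

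Monocyte and recruited macrophage genes were lower in YFP+ cells with 1 exception. In UTR 6 of the 7 were lower than in YFP- and 0 higher, with a median of -4.23, and the same counts held over all YFP+ arrays. Ly6c2, part of the antigen of inflammatory monocytes, read 4.37, 4.14 and 3.79 in DDC, 3.51, 3.93 and 3.59 in CDE and 3.83 and 4.14 in UTR, against 8.13, 12.22 and 6.37 in YFP-. Ccr2, the receptor that draws monocytes to CCL2, read 4.34, 4.27 and 4.64 in DDC, 4.25, 4.83 and 5.42 in CDE and 4.42 and 4.58 in UTR, against 8.67, 10.72 and 7.60 in YFP-. YFP- replicate 2 was the highest array for both, and no YFP+ array came near the YFP- ones. Ly6c2 differed by -4.92 ± 1.29 (adjusted p = 0.0274, limma), a lower bound since it was dim on both UTR arrays, and by -3.26 without YFP- replicate 2, and Ccr2 differed by -4.50 ± 0.73 (adjusted p = 0.00276).

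Fcgr4, an activating Fc receptor for IgG, read 4.32, 4.12 and 4.38 in DDC, 4.76, 4.91 and 5.34 in CDE and 4.91 and 4.55 in UTR, against 7.67, 8.69 and 10.69 in YFP-. The fractalkine receptor Cx3cr1, of patrolling monocytes and many tissue macrophages, read 7.33, 7.58 and 7.30 in DDC, 7.21, 7.62 and 7.67 in CDE and 7.23 and 7.39 in UTR, against 8.99, 9.96 and 8.81 in YFP-. The groups did not overlap in either gene, and Cx3cr1 was the steadiest of the 7 across the YFP- arrays. Fcgr4 differed in UTR by -4.29 ± 0.68, the high-affinity IgG receptor Fcgr1 by -4.23 ± 0.62, Cx3cr1 by -1.94 ± 0.31 and Trem2, a lipid receptor of macrophages in injured tissue, by -2.12 ± 0.52 (adjusted p of 0.00248, 0.00165, 0.00239 and 0.0196 in that order, limma). Over all YFP+ arrays the values were -4.34, -4.23, -1.85 and -2.01, with -4.98 for Ly6c2 and -4.41 for Ccr2. Clec4e, a lectin that senses microbial glycolipids and dead cells, was dim on both UTR arrays, read 3.96, 8.29 and 5.04 in YFP- and did not pass (-1.94 in UTR, -1.84 over all YFP+ arrays).

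In further monocyte genes 9 of 20 were lower in UTR than in YFP- and 1, the matrix protein Fn1, was higher (2.31). The lower ones included the membrane proteins Ms4a6c (-5.63) and Ms4a4c (-4.95), the cytokine Il1b (-4.94) and the integrin Itga4 (-4.26). Ms4a4c and Itga4 were dim on both UTR arrays, so that the sizes of their differences are lower bounds.

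The neutrophil genes were split between those called lower and the rest. Only 3 of the 8 were lower in UTR than in YFP-, and 3 of the 8 over all YFP+ arrays, the same 3 genes: S100a8, S100a9 and Csf3r. S100a8 and S100a9 encode the partners of calprotectin, a protein that binds calcium and zinc. S100a8 read 7.40, 5.64 and 4.21 in DDC, 4.43, 7.63 and 5.98 in CDE and 4.77 and 5.00 in UTR, against 9.63, 12.33 and 8.10 in YFP-. S100a9 read 6.81, 6.35 and 4.75 in DDC, 5.15, 8.09 and 6.67 in CDE and 5.19 and 5.96 in UTR, against 10.20, 12.36 and 9.04 in YFP-. Both were highest on YFP- replicate 2, and within YFP+ cells both were highest on CDE replicate 2, then on DDC replicate 1. Csf3r, the receptor for G-CSF, read 4.38, 4.46 and 4.46 in DDC, 4.15, 4.30 and 4.24 in CDE and 4.40 and 4.34 in UTR, against 5.11, 8.18 and 8.13 in YFP-.

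The differences from YFP- in UTR were -5.13 ± 1.33 for S100a8, -4.95 ± 1.08 for S100a9 and -2.77 ± 0.75 for Csf3r (adjusted p of 0.0258, 0.0114 and 0.0314, limma), and over all YFP+ arrays -4.47, -4.47 and -2.80. The call for Csf3r in UTR was lost with any 1 array left out except YFP- replicate 1.

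Of the granule and receptor genes, Cxcr2, the receptor for CXC chemokines, read 5.08, 5.79 and 5.02 in DDC, 5.00, 5.07 and 5.36 in CDE and 5.19 and 4.79 in UTR, against 5.10, 7.86 and 5.34 in YFP-. Retnlg, a resistin-like protein of neutrophils, read 3.97, 4.09 and 4.09 in DDC, 3.99, 4.57 and 3.93 in CDE and 4.19 and 3.95 in UTR, against 5.30, 9.51 and 4.48 in YFP-. Ngp, a granule protein of maturing neutrophils, read 4.21, 4.31 and 4.30 in DDC, 4.32, 4.32 and 4.28 in CDE and 4.32 and 3.98 in UTR, against 4.87, 9.22 and 4.10 in YFP-. In all 3 genes 1 array, YFP- replicate 2, stood far above the other 10. The cathelicidin Camp and the collagenase Mmp8 had the same shape, at 5.00, 10.16 and 3.96 for Camp and 4.73, 7.41 and 5.32 for Mmp8 in YFP-.

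None of these 5 genes passed in UTR, with differences of -1.11 for Cxcr2, -2.36 for Retnlg, -1.91 for Ngp, -2.46 for Camp and -1.18 for Mmp8, nor over all YFP+ arrays, with -0.96, -2.33, -1.82, -2.51 and -1.21. Camp and Retnlg were dim on both UTR arrays. Without YFP- replicate 2 the median of the 8 neutrophil genes in UTR minus YFP- was -0.69, in place of -2.41. Of 20 further neutrophil genes, 4 were lower in UTR and 0 higher, namely the formyl peptide receptor Fpr2 (-5.30), the histamine-forming enzyme Hdc (-4.62), the integrin chain Itgb2 (-3.89) and the peroxidase Mpo (-1.34). Fpr2 and Hdc were dim on both UTR arrays, which makes the sizes of their differences lower bounds too. Differences in UTR were negative for 15 of the 20 and positive for 5, up to 3.14. Over all YFP+ arrays 8 of the 20 were lower and 1, Lcn2, was higher (3.23, adjusted p = 0.0134, limma). There 3777 of all 23185 genes were higher and 3306 lower.

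**Figure D3:**
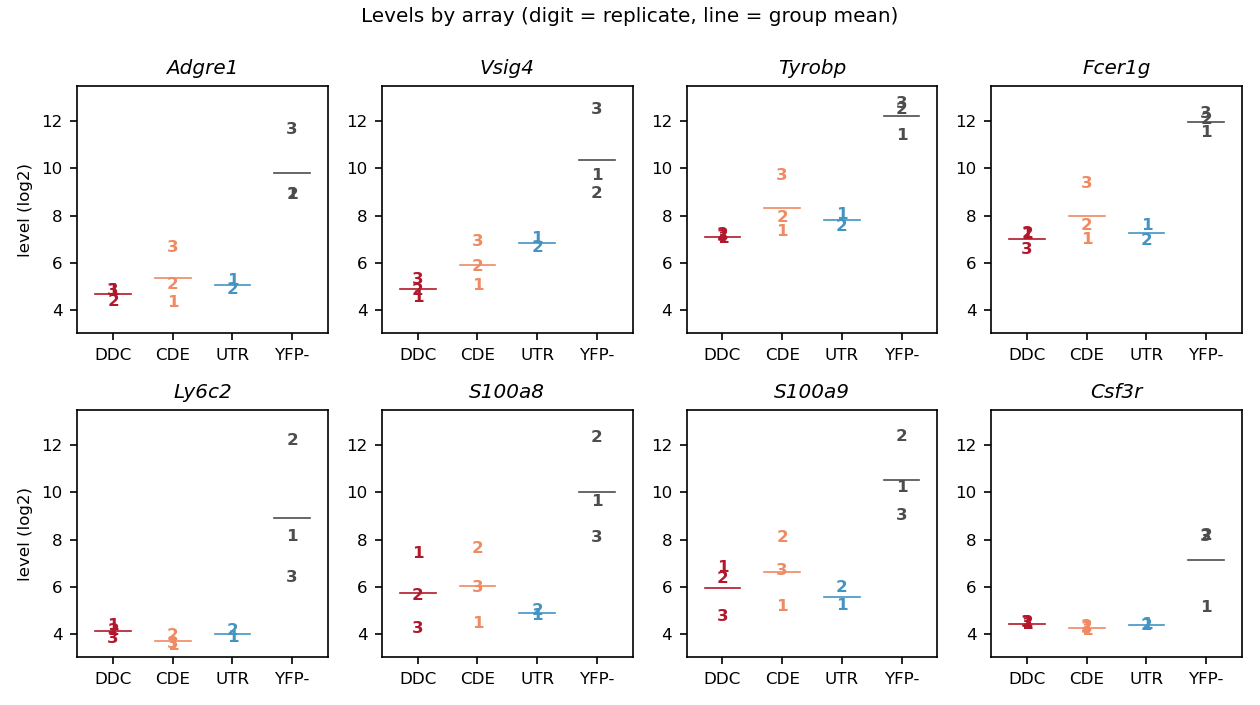
Level (y axis, log2) of 8 of the genes in each group (x axis), with a digit for each replicate and a line at the group mean. Adgre1 and Vsig4 have YFP- replicate 3 on top and Ly6c2, S100a8 and S100a9 YFP- replicate 2, while within DDC and within CDE the arrays of S100a8 and S100a9 lie apart and those of Csf3r lie together.

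Most genes shared by several myeloid cells were lower in YFP+ cells as well. In UTR 7 of the 9 were lower than in YFP- and 0 higher, and over all YFP+ arrays 8 of the 9. Tyrobp, the signalling adapter DAP12 that pairs with TREM2 and other receptors, read 7.02, 7.20 and 7.10 in DDC, 7.33, 7.93 and 9.69 in CDE and 8.06 and 7.54 in UTR, against 11.40, 12.50 and 12.77 in YFP-. Fcer1g, the adapter chain shared by Fc receptors, read 7.21, 7.22 and 6.54 in DDC, 6.99, 7.57 and 9.38 in CDE and 7.58 and 6.94 in UTR, against 11.51, 12.09 and 12.35 in YFP-. Spi1, the transcription factor PU.1 that sets the myeloid fate, read 5.67, 5.54 and 6.001 in DDC, 5.75, 7.02 and 7.30 in CDE and 6.53 and 6.43 in UTR, against 9.91, 11.36 and 11.80 in YFP-. No YFP+ array reached a YFP- array in any of the 3 genes, and among YFP+ arrays CDE replicate 3 was the highest in each.

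In UTR minus YFP- these 3 genes differed by -4.42 ± 0.63 for Tyrobp, -4.72 ± 0.61 for Fcer1g and -4.54 ± 0.56 for Spi1 (adjusted p of 0.00136, 0.000847 and 0.000711, limma), and over all YFP+ arrays by -4.48, -4.57 and -4.72. Cybb, the catalytic subunit of the phagocyte NADPH oxidase, differed by -4.89 ± 0.69 (adjusted p = 0.00138), its cytosolic partner Ncf1 by -2.02 ± 0.46, the integrin chain Itgam by -2.67 ± 0.55 and the pore-forming protein Mpeg1 by -2.47 ± 0.55, all passing the threshold. Their values over all YFP+ arrays were -4.60, -1.98, -3.11 and -2.97. Ptprc, the leukocyte phosphatase, read 5.32, 5.34 and 4.51 in DDC, 4.83, 4.84 and 5.51 in CDE and 4.71 and 5.15 in UTR, against 8.75, 11.34 and 10.75 in YFP-, with no overlap. Its difference in UTR was -5.35 ± 0.65 (40.8-fold lower; adjusted p = 0.000629, limma), and -5.26 over all YFP+ arrays. The 7 calls that held in every alternative run were those of Cd68, Msr1, Tyrobp, Fcer1g, Spi1, Cybb and Ptprc.

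Further lists hold the signalling genes around these receptors. Among ITAM and Fc receptor genes 13 of 17 were lower in UTR and 0 higher, led by the adapter Lcp2 (-5.06), the inhibitory Fc receptor Fcgr2b (-4.57), the beta-glucan receptor Clec7a (-4.53) and the inhibitory receptor Pirb (-4.34). Clec7a was dim on both UTR arrays, so the size of its difference is a lower bound. Fcgr2b is also among the sinusoidal endothelial markers, and the part of those cells in its difference was not tested. Of 6 further NADPH oxidase genes 2 were lower and 0 higher, Ncf4 (-4.04) and Rac2 (-3.14), and of 13 further myeloid transcription factors 8 were lower and 0 higher, with Tfec at -4.81, Irf8 at -4.14, Irf5 at -2.53 and Pparg at -2.16.

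Cd14 was called in neither comparison with YFP-, and Tlr4 in one of them. Cd14, the co-receptor that hands lipopolysaccharide to TLR4, read 11.58, 11.54 and 11.56 in DDC, 10.19, 10.65 and 10.44 in CDE and 11.00 and 10.34 in UTR, against 10.07, 10.57 and 11.67 in YFP-. YFP+ and YFP- arrays overlapped throughout, with differences of -0.094 ± 0.40 in UTR (adjusted p = 0.901, limma) and 0.12 ± 0.30 over all YFP+ arrays (adjusted p = 0.794). Tlr4 itself read 7.69, 7.35 and 7.46 in DDC, 6.80, 6.26 and 7.02 in CDE and 7.88 and 7.26 in UTR, against 9.53, 7.79 and 10.55 in YFP-, so that YFP- replicate 2 lay within the range of the YFP+ arrays. It was not called in UTR (-1.72 ± 0.64; adjusted p = 0.0986, limma) and was lower over all YFP+ arrays (-2.04 ± 0.48; adjusted p = 0.0108). Ly96, the MD-2 protein that binds lipopolysaccharide within the TLR4 complex, was lower in UTR (-2.91 ± 0.40; adjusted p = 0.00118). In the TLR4 pathway list as a whole 3 of 12 genes were lower and 1 higher in UTR, with Irak3, a brake on the pathway, at -2.36, the adapter Myd88 at -1.56 and the adapter Tirap at 1.09. Of all 23185 genes 2412 were higher, a share near that of the list.

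**Figure D4:**
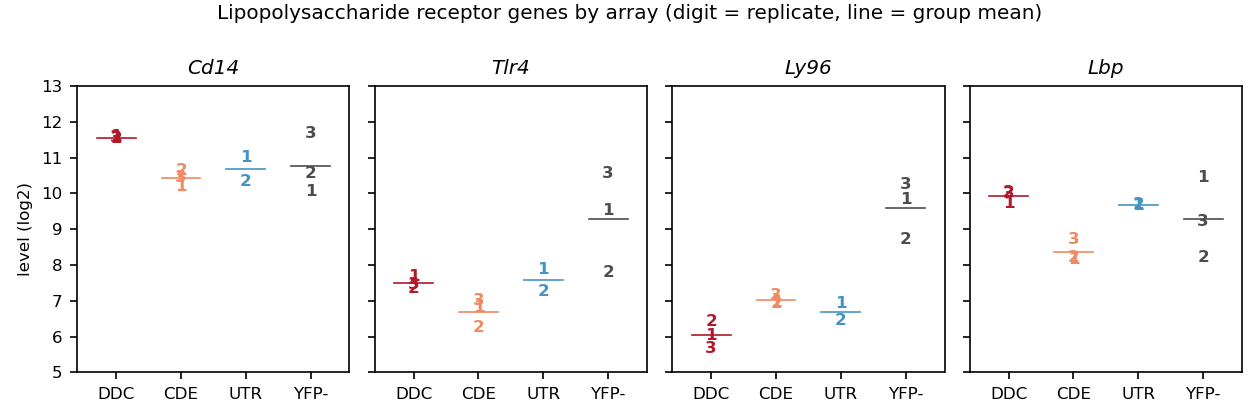
Level (y axis, log2) of the lipopolysaccharide receptor genes in each group (x axis), with a digit for each replicate and a line at the group mean. Cd14 is at 11.54 to 11.58 in DDC, above every CDE and UTR array, Ly96 runs the other way between DDC and CDE, and Lbp is low in CDE.

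Ligands of the receptors went both ways between the fractions. Of 17 measured, 2 were higher and 4 lower in UTR than in YFP-. Of all 23185 genes 2412 were higher and 1961 lower, so the count of higher ligands was near the share of all genes. Cxcl5, a ligand of CXCR2, was higher (3.78 ± 0.42), as was Cx3cl1, the ligand of CX3CR1 (3.01). The CCR2 ligand Ccl12 (-4.93), the CXCR2 ligand Cxcl2 (-4.47) and the acute phase proteins Saa1 (-3.41) and Saa2 (-3.32) were lower. Ccl12, Saa1 and Saa2 were dim on both UTR arrays, and the sizes of their differences are lower bounds.

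The 3 YFP- arrays differed in which myeloid genes were high. YFP- replicate 3 had the highest level of all 12 resident macrophage genes, with a median lead of 3.23 over the next YFP- array, least for Msr1 (0.29) and most for Cd163 (5.47). YFP- replicate 2 had the highest level of all 8 neutrophil genes, with a median lead of 2.61, least for Csf3r (0.045) and most for Camp (5.16). The monocyte genes were divided, with Ly6c2, Ccr2, Cx3cr1 and Clec4e highest on YFP- replicate 2 and Fcgr1, Fcgr4 and Trem2 highest on YFP- replicate 3. YFP- replicate 1 was the highest for 0 of the 37 genes. Levels of other cells moved with these arrays: 13 lymphocyte markers averaged 4.88, 10.24 and 5.29 on YFP- arrays 1, 2 and 3, against 4.49 to 4.60 on the YFP+ arrays, and 9 dendritic cell markers 5.99, 8.82 and 5.43. Biliary markers were highest on YFP- replicate 1, at 7.71. The part of these other cells in the myeloid values was not tested.

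**Figure D5:**
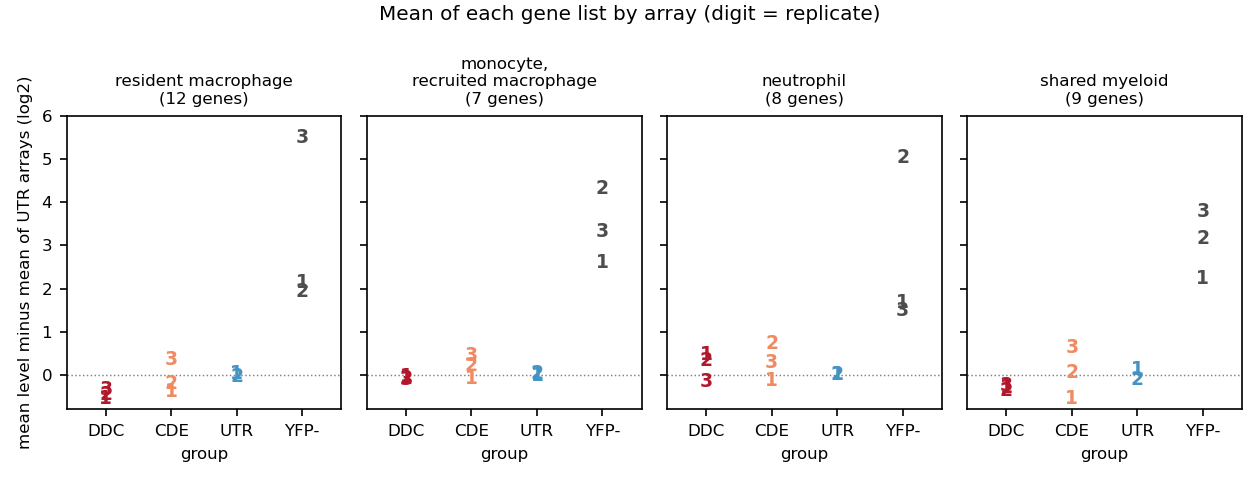
Mean level of 4 of the gene lists on each array (y axis, log2, minus the mean of the UTR arrays, dotted line at 0) by group (x axis), with a digit for each replicate. Resident macrophage genes are highest on YFP- replicate 3 and neutrophil genes on YFP- replicate 2, and CDE replicate 3 is the highest YFP+ array for the resident, monocyte and shared lists.

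The upstream sequence of the members was searched for the letters that myeloid transcription factors are known to read. Any link between these letters and the levels on the arrays was not tested. RefSeq promoter windows of GRCm38.p6, 250 bases before to 50 after each start site, were matched for 30 of the 37 genes (33 windows). The PU.1 core GAGGAA, on either strand, was in the windows of 17 of the 30 genes (56.7%), against 31.3% of all 27025 genes with a window. By window it was in 54.5% of the 33 and in 28.3% of all 32851. The C/EBP string TTGCNNAA, on either strand, was in the windows of 7 of the 30 genes (23.3%), against 12.2% of all genes, and in 21.2% of the windows, against 10.8% of all. A match is a string of letters and not a bound site. Both motifs, searched separately, were found in 4 of the genes (Cd68, Clec4e, Mmp8 and Trem2), where their matches share no letters. Of the 8 neutrophil genes 4 held the C/EBP string (Mmp8, Ngp, Retnlg and S100a9), of the 9 resident macrophage genes 1 and of the 7 monocyte genes 2. The first 3 sequences are neutrophil windows, shown because these genes were highest together on YFP- replicate 2, and the capitals mark TTGCNNAA or its reverse complement.
S100a9, chr3:90695939-90695968, minus strand: ggtaggctgtcTTGCTTAAgatttgggcgg
Ngp, chr9:110419786-110419815, plus strand: accggcagttcTTGGGCAAggcagtctcaa
Mmp8, chr9:7558399-7558428, plus strand: ttaggcagaagTTGCTCAAgatgtagcttt
The other sequences are from genes called lower over all YFP+ arrays than in YFP-, 1 neutrophil, 2 monocyte and 2 resident macrophage genes, and the capitals mark GAGGAA or its reverse complement.
S100a8, chr3:90669024-90669051, plus strand: ctggccaagctTTCCTCtataaaagcag
Ly6c2, chr15:75111929-75111956, minus strand: acctggtcagaGAGGAAgtaaggactgg
Fcgr4, chr1:171018893-171018920, plus strand: aggctatttacTTCCTCtcttctagtca
Cd5l, chr3:87357804-87357831, plus strand: agtcacctcccTTCCTCtggccatgctg
Vsig4, chrX:96293475-96293502, minus strand: gggaagtgtgtGAGGAAactaggattct

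The diets were then compared with untreated YFP+ cells. On DDC no member passed the test, while 9 of the 12 resident macrophage genes read below UTR on every array. Of the 37 genes 0 passed the threshold in DDC minus UTR (limma), where 0.16% of all genes did. An unadjusted p under 0.05 was found for 8 of the 37, and for 2417 of all 23185 genes. All 3 DDC arrays lay below both UTR arrays for 14 of the 37 genes, against 11.8% of all genes, and above them for 1, Cd14, against 12.7% of all genes. Of the 14, 9 were among the 12 resident macrophage genes, whose median difference was -0.42, while the median of all genes was 0.012. The 9 were Adgre1, Clec4f, Vsig4, Cd5l, Csf1r, Timd4, Cd163, Msr1 and Nr1h3, and since these genes share their arrays, they are not 9 separate observations. Msr1 was dim on all DDC and UTR arrays (-0.19), and Cd163 lay near the lower quartile in both groups (-0.15).

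Vsig4 had the largest difference from UTR, at -1.97 ± 0.47 (adjusted p = 0.182, limma), with 4.51, 4.82 and 5.30 in DDC, against 7.04 and 6.64 in UTR. Mpeg1, the perforin-like protein of macrophages, read 6.37, 6.69 and 6.74 in DDC, against 7.59 and 8.05 in UTR, a difference of -1.22 ± 0.28 (adjusted p = 0.161). Among the others Cd5l differed by -0.87, Clec4f by -0.86, Timd4 by -0.59 and Nr1h3 by -0.43, each with an unadjusted p under 0.05 and none past the threshold. Monocyte and neutrophil genes had medians of -0.083 and 0.095. Among 20 further monocyte genes 0 passed, with 14 positive and 6 negative differences. The largest were those of Tnf (1.51, adjusted p = 0.104, limma) and Nr4a1 (1.18, adjusted p = 0.398). In the same comparison 9 of 10 sinusoidal endothelial markers had negative differences (median -0.24), as did 7 of 9 hepatocyte markers (median -0.24), with 0 past the threshold in either list, and their part in the resident macrophage values was not tested. Among further Kupffer cell genes 0 of 19 passed and 7 had an unadjusted p under 0.05, as did 2417 of all 23185 genes. Of the 19, 13 had negative differences and 6 positive ones, up to 0.86. All 3 DDC arrays lay below both UTR arrays for 8 of them and above for 3, against 11.8% and 12.7% of all genes. The largest differences were in the complement subunit C1qc (-1.61; adjusted p = 0.328, limma) and the protease Ctss (-1.34; adjusted p = 0.546).

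The ligand list differed from the receptors. In DDC 3 of 17 ligands of these receptors were higher than in UTR and 0 lower, all of them ligands of CXCR2: Cxcl2 (3.73 ± 0.36; adjusted p = 0.0209, limma), Cxcl3 (3.07 ± 0.38; adjusted p = 0.0308) and Cxcl1 (1.62 ± 0.20; adjusted p = 0.0325). Cxcl2 read 10.81, 10.46 and 9.75 in DDC, against 7.11 and 6.10 in UTR. Cxcl3 was dim on both UTR arrays. These calls were lost in 7 of 13 alternatives for Cxcl2 and in 9 of 13 for Cxcl3 and for Cxcl1. All 3 were lost with all 11 arrays, with the replicate number as a block, and without CDE replicate 1, CDE replicate 3, DDC replicate 2 or UTR replicate 2. Cxcl2 was also lost without DDC replicate 1, Cxcl3 without CDE replicate 2, DDC replicate 3 or UTR replicate 1, and Cxcl1 without CDE replicate 2, DDC replicate 1 or DDC replicate 3. Over the same arrays Cxcr2 read 5.08, 5.79 and 5.02 in DDC, against 5.19 and 4.79 in UTR.

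On CDE no group difference was called, and 1 array, replicate 3, stood above the others. Of the 37 genes 0 passed the threshold in CDE minus UTR (limma), where 0% of all genes did. An unadjusted p under 0.05 was found for 3 of the 37, near the share of all genes (1492 of 23185). The 3 CDE arrays lay below both UTR arrays for 4 of the 37 (Timd4, Csf3r, Camp and Tlr4), against 10.5% of all genes, and above them for 2 (Cd68 and Spic), against 11.5%. Camp was dim on all CDE and UTR arrays, Csf3r on all CDE arrays and Spic on both UTR arrays. The members that differed by 1 or more were S100a8 (1.13 ± 1.03) and S100a9 (1.06 ± 0.85), neither past the threshold, and CDE replicate 1 read 4.43 and 5.15 for them, below both UTR arrays. CDE replicate 3 had the highest level of the 8 YFP+ arrays for 15 of the 37 genes: 5 of 12 resident, 5 of 7 monocyte, 4 of 9 shared, and Ptprc, but 0 of 8 neutrophil genes. The widest leads included Tyrobp at 9.69 and Fcer1g at 9.38, where no other YFP+ array passed 8.06 and 7.58.

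Kupffer cell genes outside the 37 were also highest on CDE replicate 3 among YFP+ arrays, with C1qa at 8.30, C1qb at 9.78, C1qc at 8.36 and Ctss at 10.33. The lymphocyte markers averaged 4.50 and the endothelial markers 5.31 on that array, both within the range of the other YFP+ arrays. S100a8 and S100a9 were instead highest on CDE replicate 2, which had the highest hepatocyte marker mean (9.07, against 7.79 to 8.10 on the other YFP+ arrays), and second highest on DDC replicate 1, which had the highest haemoglobin level of the YFP+ arrays (Hbb-bs at 7.26). The part of these cells in the S100a8 and S100a9 levels was not tested.

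Mean levels of the lists give the same groups in 1 value per array. The 12 resident macrophage genes averaged 5.19, 5.27 and 5.39 in DDC, 5.34, 5.52 and 6.09 in CDE and 5.77 and 5.71 in UTR, against 7.88, 7.67 and 11.24 in YFP-. The 7 monocyte genes averaged 5.06, 5.03 and 5.00 in DDC, 5.03, 5.32 and 5.57 in CDE and 5.10 and 5.13 in UTR, against 7.73, 9.42 and 8.44 in YFP-. The DDC arrays lay close together, below both UTR arrays for either list, and CDE replicate 3 lay nearest to the YFP- arrays of the 8. The 8 neutrophil genes averaged 5.04, 4.91 and 4.41 in DDC, 4.43, 5.29 and 4.86 in CDE and 4.58 and 4.57 in UTR, against 6.24, 9.63 and 6.06 in YFP-, so that neither diet stood apart from UTR.

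The diets were last compared with each other. In DDC minus CDE 1 of the 37 genes was higher, Cd14, and 0 were lower (limma), where 0.418% of all genes were higher and 0.742% lower. An unadjusted p under 0.05 was found for 13 of the 37, and for 3555 of all 23185 genes. All 3 DDC arrays lay below all 3 CDE arrays for 7 of the 37 genes, against 10.6% of all genes, and above them for 4, against 9.64%. The 7 were Clec4f, Nr1h3, Fcgr1, Fcgr4, Trem2, Mpeg1 and Tyrobp, and the 4 were Cd14, Tlr4, Csf3r and Clec4e. Clec4e was dim on all DDC and CDE arrays (0.099) and Csf3r on all CDE arrays (0.21). The median of the shared myeloid genes was -0.89 and that of the resident genes -0.33, with all 12 resident genes at or below -0.028.

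Cd14 read 11.58, 11.54 and 11.56 in DDC, against 10.19, 10.65 and 10.44 in CDE, a difference of 1.13 ± 0.18 (adjusted p = 0.0341, limma), and its difference from UTR was 0.89 ± 0.20 in DDC (adjusted p = 0.156) and -0.25 in CDE. The call in DDC minus CDE was lost when any 1 of the 6 DDC and CDE arrays was left out, with differences of 1.01 to 1.24, and with all 11 arrays in the fit (adjusted p = 0.418). Members that differed by 1 or more without passing were Vsig4 (-1.04; adjusted p = 0.293) and Tyrobp (-1.21; adjusted p = 0.314). Tlr4 differed by 0.80 ± 0.23 (adjusted p = 0.146) and Fcgr4 by -0.73 ± 0.17 (adjusted p = 0.091).

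Genes that work with Cd14 were read beside it. Lbp, the serum protein that carries lipopolysaccharide to CD14, read 9.72, 10.03 and 9.99 in DDC, against 8.15, 8.20 and 8.72 in CDE, and was higher by 1.56 ± 0.16 (adjusted p = 0.0119, limma). Ly96 read 6.03, 6.42 and 5.67 in DDC, against 6.95, 6.93 and 7.16 in CDE, with no overlap, and did not pass (-0.97 ± 0.20; adjusted p = 0.0673). The cytokine Tnf, a product of the TLR4 pathway, was higher in DDC by 1.40 ± 0.25 (adjusted p = 0.046), the only call among 20 further monocyte genes, and Klf4, a transcription factor of monocytes and of epithelia, by 1.31 ± 0.21 (adjusted p = 0.0355), the only call among 13 transcription factors. The call of Tnf was lost in 8 of 13 alternatives, namely with all 11 arrays, with the replicate number as a block and without any 1 DDC or CDE array. That of Klf4 was lost in 9 of 13, with all 11 arrays, with the block and without any 1 array except DDC replicate 3. Of the 17 ligands 5 were higher in DDC than in CDE and 0 lower: Cxcl2 (3.16), Cxcl3 (3.04), Cxcl5 (2.36), Lbp (1.56) and Cxcl1 (1.34). All 5 lost their calls with all 11 arrays and without CDE replicate 1. Leaving out CDE replicate 3 ended those of Cxcl2, Cxcl3, Cxcl5 and Cxcl1, leaving out CDE replicate 2, DDC replicate 1 or DDC replicate 2 those of Cxcl5 and Cxcl1, and leaving out DDC replicate 3 that of Cxcl5. Medians of other cell markers were 0.21 for the 7 biliary, -0.0034 for the 10 endothelial and 0.016 for the 13 lymphocyte genes, and of 9 hepatocyte genes 1 was lower in DDC, Alb, the serum albumin (-0.73), a call lost in 6 of 13 alternatives.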

How the data were processed

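Levels are the log2 values that the authors deposited, 1 per feature and array. Base 2 is inferred from their range (2.55 to 13.57), so every fold rests on that inference, and how background, normalization and probe summary were handled is not given in the sources used. The platform annotation named 23185 of 25206 features by a single gene, all of them tested, and left 2021 unnamed. No further normalization was applied. The tests were two-sided and used lmFit and eBayes of limma 3.58.1 under R 4.3.3, with 11 arrays and 4 groups (7 residual degrees of freedom) for comparisons with YFP-, and the 8 YFP+ arrays (5 degrees) for comparisons among YFP+ groups. Adjustment was by Benjamini-Hochberg across all genes tested, with a threshold of 0.05. The fit was run on simulated data, with noise drawn independently for each gene, and the outcome is not given here. Precision is limited by the number of arrays. The deposited values carry no detection flags, so dim means below the lower quartile of the array.

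The members and lists were chosen with earlier results of these data known. Named genes follow a rule: a set of markers, members past the threshold or differing by 1 or more, and genes of other lists. Of each other list the leading 2 to 4 genes were planned. They are all named for UTR minus YFP- and only in part for the other comparisons. Levels of Cd14, Tlr4, Mpeg1, Camp, Mmp8, Clec4e, Hbb-bs, Cxcl2, Lbp, Ly96, Ctss and the C1q genes, members named by overlap or by an unadjusted p, and Fn1, Cx3cl1, Saa2, Cxcl1 in DDC minus CDE and Alb were added after their values were seen. Alternatives were other sets of arrays, separate weights for YFP+ and YFP- arrays, a trend in the prior spread, quantile normalization, a filter on dim genes, a replicate block and leaving out each array. Promoter windows came from RefSeq for GRCm38.p6. Some listed genes are not analysed here.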

Additional observations from a re-analysis of the deposited data

Results flagged for a closer look

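Cd14 differed between the diets in its change from untreated YFP+ cells. It read 11.58, 11.54 and 11.56 in DDC and 10.19, 10.65 and 10.44 in CDE, against 11.00 and 10.34 in UTR. The difference of the 2 changes, which is DDC minus CDE, was 1.13 ± 0.18 (SE; adjusted p = 0.0341 over all genes, limma), with all 3 DDC arrays above all 3 CDE arrays. It lost its call when any 1 of these 6 arrays was left out. The cause was not tested.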

How the results depend on the processing

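Of the 37 genes, 22 were called lower in UTR minus YFP- and 7 with the UTR and YFP- arrays alone, a fit with fewer samples. Leaving out 1 array gave 13 to 27 calls, 13 without either UTR array, again with fewer samples. The other alternatives gave 21 to 24, and 0 genes were higher in any. Over all YFP+ arrays 27 were lower, and alternatives gave 26 to 33. Of these 27 calls, 25 held in every alternative, while Timd4 lost its call when any 1 YFP+ array was left out and S100a8 with separate weights. In CDE minus UTR and DDC minus UTR 0 members were called in every alternative. In DDC minus CDE the 1 call gave way to 0 with all 11 arrays, whose YFP- arrays add spread, and leaving out 1 array gave 0 to 1, the 1 without CDE replicate 1 being Spi1 (-1.43; adjusted p = 0.0476, limma) and not Cd14. Differences of 3 genes outside the 37 reversed without UTR replicate 2. Leaving out 1 array, Plac8 ran between -2.09 and 0.37, Ltf between -4.46 and 0.15 and Pglyrp1 between -1.35 and 0.41 in CDE minus UTR, and Ltf between -4.01 and 0.61 in DDC minus UTR. Ltf read 9.14 on UTR replicate 2 and 4.52 on UTR replicate 1. With all arrays none of these was called, but without UTR replicate 1 Ltf was lower in both diets (adjusted p = 0.0116 in CDE and 0.0108 in DDC, limma) and Plac8 in CDE (adjusted p = 0.0116).

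Over all genes, calls in UTR minus YFP- numbered 4373, and 931 with the UTR and YFP- arrays alone. Calls over all YFP+ arrays numbered 7083, and 4193 with separate weights. In DDC minus UTR they numbered 37, and 0 with the replicate block or with all 11 arrays. In DDC minus CDE they numbered 269, and 1 with all 11 arrays.

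Replicate numbers are shared by the groups, and deviations of same-numbered arrays from their group means correlated at -0.072 to 0.131. Those of differently numbered arrays correlated at -0.151 to 0.151, so the same-numbered ones did not stand out. With so few arrays in a group, their deviations are tied to each other. The check therefore cannot decide whether the numbers pair the samples. With the number as a replicate block, 21 of the 37 genes were called in UTR minus YFP-, 27 over all YFP+ arrays and 0 in DDC minus CDE, with 61 calls over all genes there.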
